A study of Mus musculus with 2 samples.

Results

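The genes described are 10 ubiquitin ligases or ligase subunits known from work on muscle atrophy and taken from the table by name, a list drawn up with earlier results of these data known: Trim63, Fbxo32, Fbxo30, Fbxo21, Fbxo31, Trim54, Trim55, Trim32, Nedd4 and Asb2. All 10 were found among the 44787 gene rows of the deposited table, and all 10 had a mean of 1 FPKM or more (a read count scaled to transcript length and library size). The RNA came from the hindlimb muscle of C57BL/6 mice aged 30 days after birth: 1 library was wild type (WT) and 1 carried the label SRSF1-MKO, whose allele, driver and number of animals the labels do not spell out. SRSF1 is a splicing factor of the SR family. The comparison asks how the levels of these ligase mRNAs differed between both genotypes. With 1 library per genotype there is no test and no replicate check, and intervals describe read counting error alone.

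Ubiquitin ligases are the last enzymes of a cascade in which an E1 enzyme activates ubiquitin, an E2 carries it, and the ligase (E3) brings E2 and substrate together, so that marked proteins can be broken down by the proteasome. RING ligases such as the TRIM proteins bind the charged E2 directly, HECT ligases such as Nedd4 take the ubiquitin over first, and F-box and SOCS box proteins are the exchangeable substrate receptors of cullin complexes. In muscle that is denervated, unloaded or starved, Trim63 (MuRF1) and Fbxo32 (atrogin-1, also MAFbx) are the classic transcripts that increase, and mice lacking either lose less muscle mass after denervation. Forkhead factors of the FoxO family, held back by insulin and IGF signalling through Akt, are the best known activators of both genes.

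The library totals read back from the FPKM values were 23146640 reads for WT and 21350284 for SRSF1-MKO. Srsf1 itself was at 13.7 FPKM in WT against 6.70 FPKM in SRSF1-MKO; its values imply a gene length of 11120 bases, more than its annotated locus of 6383 bases, so no read numbers are given for it. The submitters' description lines contradict each other about which column belongs to which sample, and the genotype in each column's name decided here, so every direction given here rests on that reading. All 12 marker genes of the skeletal muscle fibre were above 1 FPKM in both libraries, and their summed level was 77064 FPKM in WT against 47736 FPKM in SRSF1-MKO. Of these 12, 4 were higher by 1.5-fold on the log2(FPKM + 1) scale (Myh1, Myh2, Des and Mb) and 6 lower. By that rule 23.7% of all genes averaging at least 1 FPKM were higher and 8.13% lower. Myh4 alone went from 28777 to 7176 FPKM. Over the 4991 genes averaging at least 5 FPKM the median log2 ratio of SRSF1-MKO over WT, computed on FPKM + 1, was 0.32, so most genes lay somewhat above equality.

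In these libraries Fbxo32 and Trim63 were higher in SRSF1-MKO, Trim55 was lower, and the other 7 genes lay within 1.5-fold on the log2(FPKM + 1) scale. Fbxo32 was 6.16-fold higher and Trim63 2.55-fold higher, while Trim55, a close relative of Trim63, was 2.39-fold lower. That limit called 2 of 10 members higher and 1 lower, that is 20% and 10%. The same rule called 23.7% of the 10478 genes that averaged at least 1 FPKM higher and 8.13% lower, so the share of members called is near that of all genes. The median log2 ratio of the 10 members was 0.18, beside 0.21 over all those genes. With the median of genes at 5 FPKM or more set to 0, 2 members were higher and 2 lower, since Nedd4 then passed the limit, and the shares over all genes became 11.4% and 18.1%. At 2-fold the members called were again 2 higher and 1 lower, beside 9.44% and 3.12% of all genes.

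**Figure D1:**
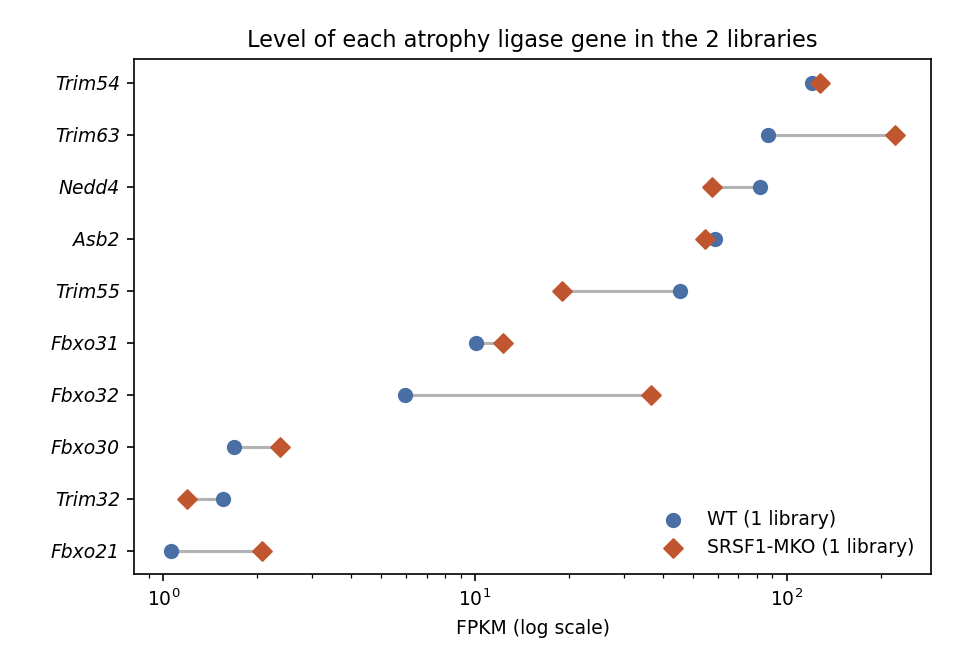
FPKM of the 10 ligase genes on a log axis, with a circle for the WT library and a diamond for the SRSF1-MKO library. The line between the symbols is longest for Fbxo32 (5.95 and 36.6 FPKM), and Trim55 is the member furthest to the left of its WT value (45.4 and 19.02 FPKM).

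Among the 4 RING members, the MuRF trio came first in level. Trim63, whose protein sits at the sarcomere and marks thick filament proteins, was at 87.1 FPKM in WT against 223 FPKM in SRSF1-MKO (chromosome 4, 134314945 to 134325309, plus strand, build mm10). About 3802 and 8960 reads stood behind these levels, and the ratio of 2.55 had an exact binomial 95% interval of 2.46 to 2.65. The log2 ratio of 1.34 exceeded that of 95.1% of the genes measured. Read numbers were taken at the whole-number multiple whose implied gene length came nearest the longest annotated coding transcript. The implied length equals an annotated transcript for 2 members, Trim63 (1886 bases) and Asb2 (2690 bases), and not for the other 8, where it ranged from 2280 against 2595 bases for Trim55 to 1532 against 1434 bases for Trim54.

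Trim54 (MuRF3), which associates with microtubules and the Z-disc, was nearly level between libraries. It was at 121 FPKM in WT against 128 FPKM in SRSF1-MKO, for a ratio of 1.06 with an interval of 1.02 to 1.11. It lies on chromosome 5, 31116612 to 31137626, plus strand. Relative to the median of genes averaging at least 5 FPKM its log2 ratio was -0.24, so its sign depended on the scaling. The antisense gene Gm15469 overlaps it, and 19.1% of the 50-base words of its transcript also occur, on either strand, in that annotation; no source used here says whether the counting used strand, so reads of both cannot be told apart.

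Trim55 (MuRF2), which binds titin and microtubules in the sarcomere, had the smallest ratio of the 10 members. It was at 45.4 FPKM in WT against 19.02 FPKM in SRSF1-MKO, which is 2.39-fold lower with an interval of 2.21 to 2.58, on about 2396 and 926 reads (chromosome 3, 19644345 to 19691570, plus strand). Only 1.89% of the genes measured had a smaller log2 ratio than its -1.21. The values of the trio therefore went apart in 3 ways between these libraries: higher for Trim63, close to level for Trim54 and lower for Trim55.

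The make-up of the trio differed accordingly. Its summed level was 253 FPKM in WT against 370 FPKM in SRSF1-MKO, for a ratio of 1.46. Trim63 made up 34.4% of that sum in WT and 60.2% in SRSF1-MKO, Trim54 47.7% and 34.6%, and Trim55 17.9% and 5.15%. In WT, Trim54 was the most abundant of the trio at 1.39 times the level of Trim63. In SRSF1-MKO, Trim63 stood at 1.74 times the level of Trim54. Trim63 exceeded Trim55 by 1.92 times in WT and by 11.7 times in SRSF1-MKO.

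**Figure D2:**
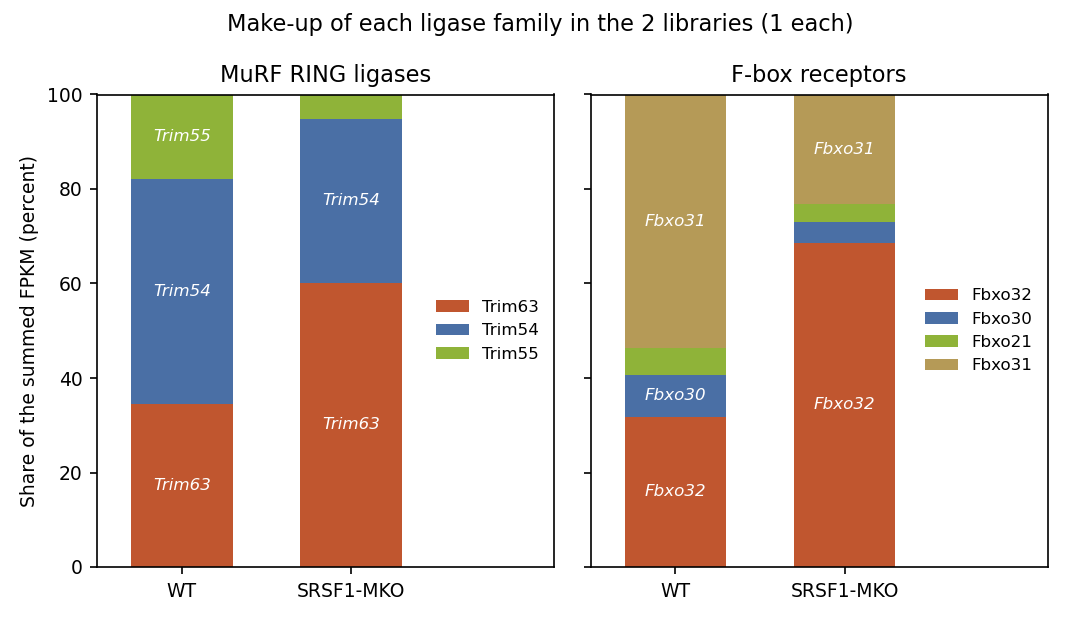
Share of the summed FPKM taken by each gene, in percent, for the MuRF trio (left) and the 4 F-box members (right), with 1 bar per library. Trim63 goes from 34.4% in WT to 60.2% in SRSF1-MKO and Fbxo32 from 31.8% to 68.6%, while Fbxo31 goes from 53.6% to 23.1%.

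The trio is close in sequence, which bears on whether reads could be given to the wrong gene. The longest protein-coding GENCODE transcripts of Trim63 and Trim54 were 78.5% identical over 856 aligned bases, and those of Trim63 and Trim55 73.6% over 869. A read aligned with mismatches could match both genes beyond a run that they share exactly. The longest exact runs that the Trim63 transcript shares with those of Trim54 and Trim55 were as follows.
Trim63 and Trim54: aacatcattgacatctacaagcaggagt
Trim63 and Trim55: ctgcagaggaacctgct
The first run is 28 bases long and the second 17. None of the 1837 words of 50 bases in the Trim63 transcript, and none of the 2546 in that of Trim55, occurs in a transcript of another gene. A read of that length or longer that matches Trim63 or Trim55 exactly thus has no second exact match in the annotation.

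Trim32, the fourth RING member, carries NHL repeats, acts on desmin and thin filament proteins and is mutated in a human limb-girdle dystrophy. It was low in both libraries, at 1.56 FPKM in WT against 1.19 FPKM in SRSF1-MKO (chromosome 4, 65605076 to 65616238, plus strand). Only about 121 and 85 reads covered it, and the interval of its ratio of 0.762 ran from 0.570 to 1.01. Trim32 was the 1 member of the 10 whose counting interval held 1, so counting error alone could cover its distance from equality. That interval lay below 1.28, the median ratio of genes averaging at least 5 FPKM.

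Among the F-box members, Fbxo32 stood apart from the other 3. Fbxo32 recruits substrates such as MyoD and the initiation factor subunit eIF3f to an SCF complex. It was at 5.95 FPKM in WT against 36.6 FPKM in SRSF1-MKO, on about 955 and 5422 reads (chromosome 15, 58175879 to 58214892, minus strand). The ratio of 6.16 had an interval of 5.74 to 6.60, and its log2 ratio of 2.44 exceeded that of 98.95% of the genes measured. Of the 50-base words of its transcript 2.57% also occur in transcripts of other genes. In WT, Fbxo32 had 0.0683 of the level of Trim63, and in SRSF1-MKO 0.165.

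The remaining F-box members differed less. Fbxo21, known as SMART in mouse muscle, where it is FoxO-dependent, was at 1.05 FPKM in WT against 2.07 FPKM in SRSF1-MKO, on 96 and 174 reads (chromosome 5, 117976735 to 118010201, plus strand). Its FPKM ratio of 1.97 had an interval of 1.52 to 2.55, but the log2(FPKM + 1) scale compresses genes this low, and its value there, 0.580, lay just under the limit of 0.585. The pseudogene Gm5403 shares 0.793% of its 50-base words. Fbxo30 (MUSA1), a ligase subunit that BMP signalling holds down in denervated mouse muscle, was at 1.68 and 2.37 FPKM on 196 and 254 reads, a ratio of 1.40 with an interval of 1.16 to 1.70 (chromosome 10, 11281330 to 11297969, plus strand). Fbxo31, a receptor for cyclin D1, was at 10.05 FPKM in WT against 12.3 FPKM in SRSF1-MKO, for a ratio of 1.23 with an interval of 1.13 to 1.33 (chromosome 8, 121549443 to 121578806, minus strand). Relative to the median of genes averaging at least 5 FPKM, the log2 ratio of Fbxo30 was 0.01 and that of Fbxo31 -0.05.

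The sum of the 4 F-box members was 18.7 FPKM in WT against 53.4 FPKM in SRSF1-MKO. Fbxo31 was the most abundant of them in WT, at 53.6% of the sum, with Fbxo32 at 31.8%. In SRSF1-MKO, Fbxo32 took 68.6% and Fbxo31 23.1%. Fbxo30 and Fbxo21 were below 3 FPKM in both libraries.

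**Figure D3:**
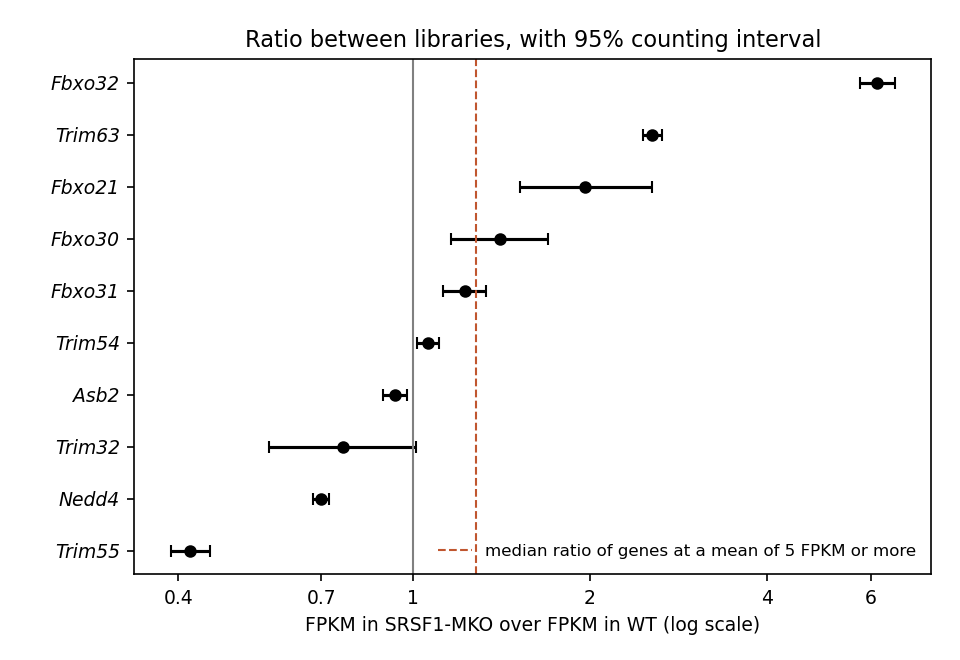
Ratio of FPKM in SRSF1-MKO over WT for each member on a log axis, with exact binomial 95% intervals that cover read counting only. The grey line marks equality and the dashed line the median ratio of 1.28 over the 4991 genes averaging at least 5 FPKM; Fbxo32 (6.16) and Trim63 (2.55) lie to the right of both, Trim55 (0.419) and Nedd4 (0.699) to the left of both.

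The HECT ligase Nedd4 and the cullin 5 receptor Asb2 were abundant in both libraries and lower or near level in SRSF1-MKO. Nedd4, which is induced in unloaded and denervated rodent muscle and acts on Notch1 there, was at 82.2 FPKM in WT against 57.4 FPKM in SRSF1-MKO (chromosome 9, 72662347 to 72749848, plus strand). That is 1.43-fold lower with an interval of 1.39 to 1.48, on 10448 and 6737 reads, the largest read number of any member in WT. Its log2 ratio of -0.51 was within 1.5-fold as deposited and -0.83 relative to the median of genes averaging at least 5 FPKM. Asb2, which targets filamins and limits muscle mass when overexpressed in mice, was at 58.7 and 54.8 FPKM, a ratio of 0.934 with an interval of 0.890 to 0.980 (chromosome 12, 103321142 to 103356001, minus strand). The sum of all 10 members was 414 FPKM in WT against 536 FPKM in SRSF1-MKO, and Trim63 took 21.02% and 41.5% of it.

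Promoter windows are shown for Trim63 and Trim54, the MuRF genes that were higher and near level, because forkhead factors and the E-box-binding myogenic factor myogenin are known regulators of Trim63. The windows, from RefSeq on GRCm38.p6, run from 250 bases before to 50 after a start annotated by RefSeq and were held for 8 of the 10 members; none was held for Fbxo32 or Trim55. Capitals mark matches to the forkhead motif GTAAACA on either strand and to the E-box CANNTG, which reads the same on both strands; no match of one motif overlapped a match of the other.
Trim63, chr4:134314870-134315169, plus strand: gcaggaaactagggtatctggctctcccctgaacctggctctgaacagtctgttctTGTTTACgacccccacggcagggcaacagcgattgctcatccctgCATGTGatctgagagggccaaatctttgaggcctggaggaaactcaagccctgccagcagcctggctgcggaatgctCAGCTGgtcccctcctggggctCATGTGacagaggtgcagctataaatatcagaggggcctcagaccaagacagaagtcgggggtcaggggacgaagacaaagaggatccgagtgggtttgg
Trim54, chr5:31116362-31116661, plus strand: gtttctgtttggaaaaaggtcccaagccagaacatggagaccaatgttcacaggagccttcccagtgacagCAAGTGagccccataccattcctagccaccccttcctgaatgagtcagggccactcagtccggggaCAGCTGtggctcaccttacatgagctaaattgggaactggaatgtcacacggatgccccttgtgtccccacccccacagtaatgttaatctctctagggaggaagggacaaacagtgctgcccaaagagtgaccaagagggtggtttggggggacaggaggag
The Trim63 window held the forkhead motif once, starting at position -194, and 3 E-boxes starting at -149, -72 and -50, where 0 is the RefSeq start, base 134315120. The deposited table starts Trim63 175 bases earlier, and counted from there the forkhead match lies at -19 and the E-boxes at 26, 103 and 125, inside the gene. For Trim54 both sources give the same start. The Trim54 window held no match to the forkhead motif and 2 E-boxes, at -179 and -113. Of 32851 mouse promoter windows of this length, 3.65% held the forkhead motif and 72.3% an E-box. The form CAGCTG, present once in each of these windows, occurred in 16.3%. Among the other members, no window held the forkhead motif, and E-boxes were found for Trim32, Asb2 and Nedd4. A match describes letters only and is no evidence of binding.

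The factors known to act upstream of these genes did not all differ in the same direction. Of 27 transcription factors and their regulators measured, 7 were higher and 5 lower at 1.5-fold, and the median log2 ratio was 0.12. These shares were 25.9% and 18.5%, beside 23.7% and 8.13% of all genes averaging at least 1 FPKM. Myogenin (Myog), which activates Trim63 and Fbxo32 in denervated mouse muscle, was 7.22-fold higher, at 8.87 FPKM in WT against 64.1 FPKM in SRSF1-MKO. Hdac4, a deacetylase upstream of myogenin in that response, was at 3.05 and 5.47 FPKM. The coactivator Ppargc1a, reported to restrain the atrophy ligases, was also higher, at 3.23 and 11.9 FPKM, as was the NF-kappaB inhibitor Nfkbia at 7.06 and 17.8 FPKM. Klf15, a glucocorticoid-responsive factor, was at 2.95 and 5.48 FPKM.

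The forkhead genes themselves showed no common direction. Foxo1 was at 1.95 FPKM in WT against 3.42 FPKM in SRSF1-MKO, a log2 ratio of 0.58 that lay just under the limit, and Foxo3 was at 2.54 and 3.12 FPKM. Foxo4 (23.8 and 14.8 FPKM) and Foxo6 (3.20 and 0.760 FPKM) were lower. Twist1, Junb and Jund were the other lower factors, with Twist1 at 2.41 and 0.661 FPKM. Foxo6 and Twist1 passed the filter of 1 FPKM only through WT. These are mRNA levels, and FoxO activity is set largely by phosphorylation, which was not measured.

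Of 25 upstream signalling genes measured, 6 were higher and 2 lower, and the median log2 ratio was 0.33. These shares of 24% and 8% were near the 23.7% and 8.13% of all genes averaging at least 1 FPKM. Tnfrsf12a, the TWEAK receptor Fn14 that is induced in denervated muscle, was 11.5-fold higher, at 9.36 and 107 FPKM. Noggin (Nog), the BMP antagonist, was at 1.24 and 6.07 FPKM and the TNF receptor Tnfrsf1a at 3.75 and 9.87 FPKM. Mstn, the muscle growth inhibitor myostatin, was 5.46-fold lower, at 25.1 and 4.60 FPKM, and the insulin receptor substrate Irs1 2.28-fold lower, at 14.8 and 6.50 FPKM. The ligand Igf1 was at 5.62 and 3.47 FPKM, a log2 ratio of -0.56 that did not reach the limit. With the median of genes averaging at least 5 FPKM set to 0, the signalling list had 3 members higher and 7 lower.

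The core of the cullin complexes, on which the F-box members and Asb2 depend, was mostly within 1.5-fold. Of 20 genes measured, 4 were higher and 1 lower, and the median log2 ratio was 0.30. These shares were 20% and 5%, beside 23.7% and 8.13% of all genes averaging at least 1 FPKM. The SCF subunits Skp1a (82.7 and 84.8 FPKM), Cul1 (16.2 and 19.6 FPKM) and Rbx1 (19.4 and 23.9 FPKM) were within the limit, as was Cul5 (15.5 and 16.7 FPKM). Rnf7, the RING partner of Cul5, was 1.78-fold higher, at 21.1 and 37.5 FPKM. The other 3 higher genes serve the attachment of NEDD8, which activates cullins: Uba3 (14.4 and 34.6 FPKM), Ube2m (12.1 and 22.4 FPKM) and Nedd8 (23.1 and 41.9 FPKM). Cand2, a cullin exchange factor of muscle, was lower at 13.6 and 7.74 FPKM. With the median of genes averaging at least 5 FPKM set to 0, only Uba3 stayed higher.

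Rps27a (92.3 and 183 FPKM), whose product is ubiquitin fused to a ribosomal protein, was higher, while Ubb (323 and 419 FPKM) and the E1 enzyme Uba1 (17.9 and 21.1 FPKM) were within 1.5-fold. Of 28 E2 enzymes, 7 were higher and 2 lower, that is 25% and 7.14%, beside 23.7% and 8.13% of all genes. Ube2g2, an E2 of endoplasmic reticulum degradation, was at 8.59 and 17.7 FPKM, and Ube2b, an E2 long studied in muscle wasting, at 59.9 and 99.4 FPKM. Ube2s (18.4 and 31.5 FPKM) completed the 3 with the largest ratios. Ube2d1 (83.3 and 51.6 FPKM) and Ube2e1 (48.1 and 25.9 FPKM) were the 2 lower ones.

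**Figure D4:**
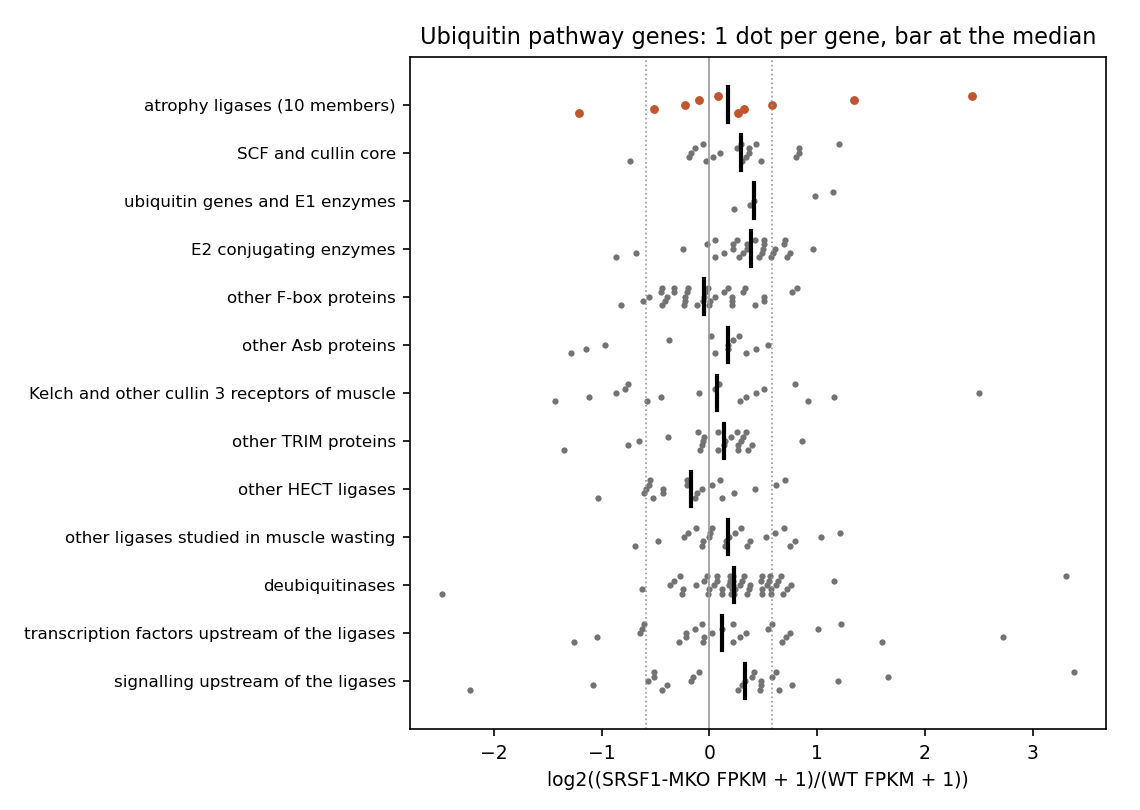
Log2 ratio on the FPKM + 1 scale for each measured gene of 12 ubiquitin pathway lists (grey) and for the 10 atrophy ligases (orange, top), with a black bar at each list's median and dotted lines at 1.5-fold. The list medians lie between -0.17 for other HECT ligases and 0.42 for ubiquitin genes and E1 enzymes, and the 10 members spread from -1.21 to 2.44.

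Against the other ubiquitin ligases and receptors measured, Fbxo32 and Trim63 had some of the largest ratios. Of 143 such genes, the 10 members included, Fbxo32 had the second largest log2 ratio and Trim63 the third. The largest was that of Klhl34, a Kelch protein, at 0.395 and 6.88 FPKM, which passed the filter of 1 FPKM only through SRSF1-MKO. Trim55 had the fourth smallest, after Klhl31, Trim7 and Asb18. By level, Trim63 ranked 4 of 143 in WT and 2 in SRSF1-MKO, where only Klhl41 (195 and 237 FPKM), a Kelch protein of the sarcomere, was above it. Fbxo32 ranked 61 in WT and 12 in SRSF1-MKO. Over the 133 other ligases, 15 were higher and 16 lower, which is 11.3% and 12.0%, and the median log2 ratio was 0.02. The same rule called 23.7% of all genes averaging at least 1 FPKM higher and 8.13% lower.

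By family, the remaining receptors of the F-box group had 2 of 35 members higher and 2 lower, that is 5.71% each. Over all genes averaging at least 1 FPKM the shares were 23.7% and 8.13%. The higher ones were Fbxo8 (4.04 and 7.89 FPKM) and Fbxo36 (0.720 and 1.93 FPKM, on only 15 and 37 reads). The lower ones were Fbxl17 (3.43 and 1.89 FPKM) and Fbxl22 (1.92 and 0.655 FPKM). Fbxo36 passed the filter of 1 FPKM only through SRSF1-MKO and Fbxl22 only through WT. Fbxo40, a muscle F-box protein that acts on Irs1, was level at 32.7 and 32.4 FPKM. Of 13 other Asb genes, 0 were higher and 3 (23.1%) lower: Asb14 (19.8 and 8.40 FPKM), Asb16 (8.37 and 3.78 FPKM) and Asb18 (3.27 and 0.749 FPKM). Asb18, like Fbxl22, passed the filter only through WT. Of 18 cullin 3 receptors, 4 were higher and 5 lower, that is 22.2% and 27.8%. Klhl38, a Kelch gene induced in atrophying muscle, was among the higher ones at 0.447 and 2.22 FPKM, with Klhl30 and Klhl40. Like Fbxo36, Klhl38 passed the filter only through SRSF1-MKO. Klhl31 (85.3 and 31.1 FPKM), Kbtbd12 (24.5 and 10.7 FPKM), Klhl23, Kbtbd13 and Spop were lower.

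Of 23 other TRIM genes, Trim47 (1.38 and 3.33 FPKM) was higher and Trim7 (16.7 and 5.94 FPKM), Trim68 and Trim35 lower. Those are 4.35% and 13.0%, beside 23.7% and 8.13% of all genes averaging at least 1 FPKM. Of 20 other HECT ligases, 2 were higher and 2 lower, that is 10% each, and Ube3a (6.52 and 11.2 FPKM) was among the higher ones. The lower ones were Huwe1 (12.2 and 7.64 FPKM) and Nedd4l, the nearest relative of Nedd4, at 2.46 and 0.692 FPKM, a 3.55-fold difference. Nedd4l passed the filter of 1 FPKM only through WT. Of 24 further ligases studied in wasting, 6 (25%) were higher, led by Siah1a (2.09 and 6.15 FPKM), Rnf115 (28.9 and 60.2 FPKM) and Siah2 (2.26 and 4.67 FPKM). Cblb, which acts on Irs1 in unloaded mouse muscle, was at 1.22 and 2.74 FPKM, and Neurl2, a muscle-specific receptor also called Ozz, was the 1 lower gene at 5.38 and 2.96 FPKM. Traf6, an upstream ligase of the atrophy response, was at 1.82 and 1.45 FPKM.

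Of 50 deubiquitinases, which remove ubiquitin, 8 were higher and 2 lower, and the median log2 ratio was 0.23. These shares were 16% and 4%, beside 23.7% and 8.13% of all genes averaging at least 1 FPKM. Uchl1 was 24.7-fold higher, at 0.603 and 14.9 FPKM with an interval of 14.98 to 43.6, from only 16 reads in WT. Usp54 (0.399 and 2.11 FPKM) and Cyld (2.49 and 4.90 FPKM) followed. Uchl1 and Usp54 were below 1 FPKM in WT and passed the filter only through SRSF1-MKO. Otud1 was 5.84-fold lower, at 101 and 17.4 FPKM, and Bap1 was at 9.06 and 5.51 FPKM.

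The mRNAs of reported substrates differed in both directions. Of 37 such genes, 13 were higher and 10 lower at 1.5-fold, that is 35.1% and 27.0%, beside 23.7% and 8.13% of all genes. For Trim63, the thick filament substrates went both ways. The fast heavy chain Myh4 was 4.01-fold lower and the fast myosin-binding protein Mybpc2 14.1-fold lower. The other fast chains were higher, Myh1 at 1176 and 4028 FPKM and Myh2 at 78.2 and 2399 FPKM, as were the slow chain Myh7 at 0.121 and 21.6 FPKM and Mybpc1, the slow binding protein, at 241 and 492 FPKM. Myh7 had only 17 reads in WT and passed the filter of 1 FPKM only through SRSF1-MKO. Because the neighbouring Myh genes resemble each other closely, each single value among them is uncertain. The fast light chains Myl1 and Mylpf were within 1.5-fold, with log2 ratios of -0.45 and -0.50.

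For Fbxo32, the substrate mRNAs Eif3f (20.4 and 29.5 FPKM) and Myod1 (6.55 and 5.18 FPKM) were within 1.5-fold, and Des (1532 and 4385 FPKM) and Vim (108 and 174 FPKM), both intermediate filaments, were higher. For Trim32, Des, Actn2 and Jup were higher and Actn3 and Tpm1 lower. Flnc, the muscle filamin among the targets of Asb2, was 3.08-fold higher, at 39.6 and 122 FPKM, while Flna (8.87 and 6.67 FPKM) was within 1.5-fold. Pdlim7, a substrate of Nedd4 in mouse muscle, was at 44.7 and 24.0 FPKM, and Notch1 was level at 1.04 and 1.06 FPKM. Ccnd1, the cyclin that Fbxo31 targets, was at 7.08 and 3.76 FPKM. Protein levels and ubiquitination were not measured.

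**Figure D5:**
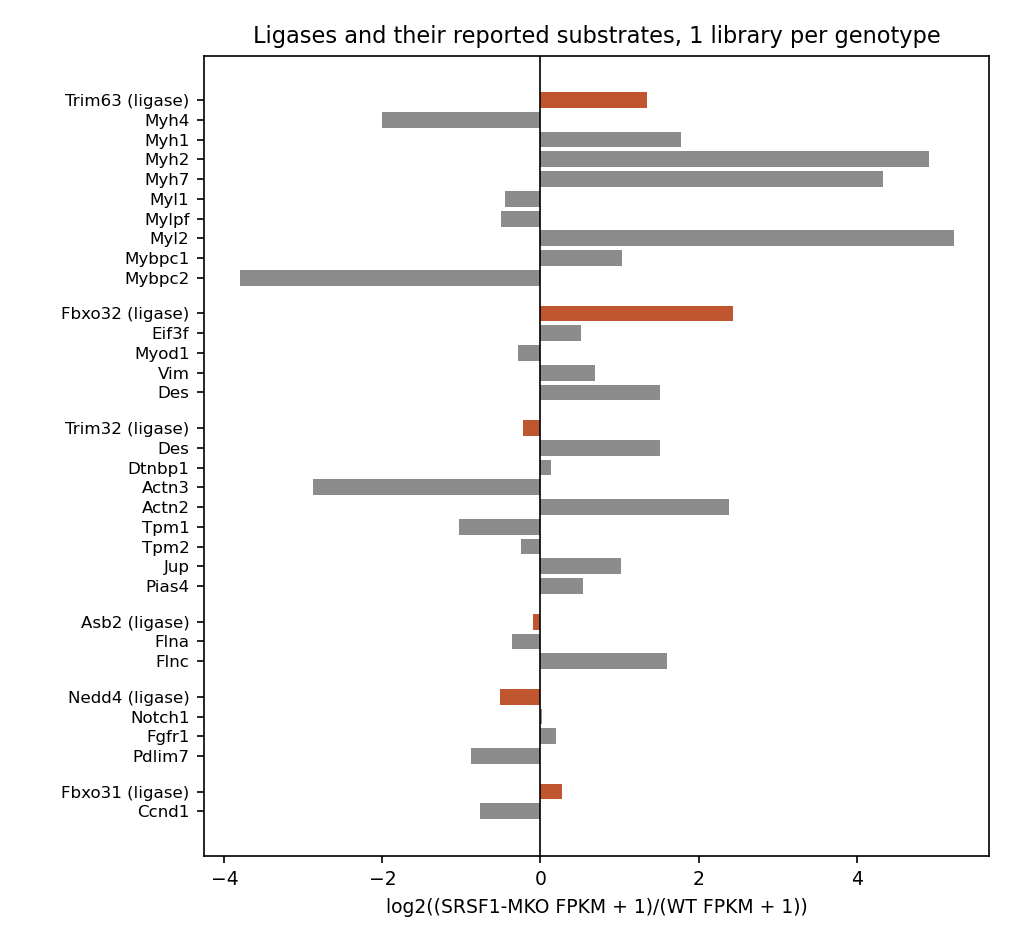
Log2 ratio on the FPKM + 1 scale for 6 ligases (orange) and, under each, a selection of genes reported as substrates (grey), from 1 library per genotype. Bars under Trim63 run from -3.81 for Mybpc2 to 5.23 for Myl2. Myl2 was at only 0.345 FPKM in WT, on 7 reads, and passed the filter of 1 FPKM only through SRSF1-MKO.

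Markers of other cell types also differed between the libraries. Their counts past the 1.5-fold limit stand beside 23.7% higher and 8.13% lower of all genes averaging at least 1 FPKM. The summed level of 9 macrophage markers was 29.7 FPKM in WT against 79.2 FPKM in SRSF1-MKO, with 3 of 6 measured genes higher and none at 0. Of these 3, Cd68 (0.752 and 7.99 FPKM) and Itgam (0.738 and 3.20 FPKM) passed the filter of 1 FPKM only through SRSF1-MKO. Lyz2 carried most of the macrophage sum at 18.1 and 56.3 FPKM, and only Mrc1 fell below its WT level, at 6.79 and 5.61 FPKM. The sum was 36.01 and 72.6 FPKM for 5 Schwann cell markers (2 of 3 measured genes higher). For 5 satellite cell markers the sum was 16.2 and 31.9 FPKM (1 of 3 measured genes higher). Itga7 carried most of that difference, at 7.16 and 20.6 FPKM. Myf5 and Cdh15 were also above their WT levels, while Pax7 and Chodl were below theirs. For 6 endothelial markers the sum was 70.3 and 46.8 FPKM (2 of 6 lower). For 7 fibro-adipogenic markers the sum was 593 and 429 FPKM (1 of 7 lower). Col1a1 (276 and 121 FPKM) and Col3a1 (145 and 115 FPKM) carried that difference. Dpt was also below its WT level, while Pdgfra, Dcn, Ly6a and Lum were above theirs. The sum was 285 and 349 FPKM for 6 adipocyte markers (4 of 5 measured lower, Fabp4 carrying the sum at 246 and 334 FPKM). Of the lower ones, Plin1 (2.62 and 0.660 FPKM) passed the filter of 1 FPKM only through WT. It was 72.2 and 60.6 FPKM for 5 smooth muscle markers (0 of 4 past the limit). Erythroid genes summed to 384 and 346 FPKM (0 of 5 past the limit), with Hbb-b1 listed at 0 in both libraries. Heart markers summed to 0.609 and 5.96 FPKM (2 of 2 measured higher), with Nppa and Nppb listed at 0 in WT. Both measured ones, Myh6 (0.392 and 2.19 FPKM) and Nppb (2.28 FPKM in SRSF1-MKO), passed the filter only through SRSF1-MKO. In bulk tissue, fewer cells of a type and less RNA per cell cannot be told apart, and the part of these cell types in the ligase differences was not tested.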

How the data were processed

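The authors deposited 1 table of FPKM values, with 1 column per genotype and no log or filter applied; Bowtie and build mm10 are named in the submitters' processing notes, while no source used here gives the annotation, counting method or strandedness. Columns were assigned to genotypes by name. Its 1 blank line is not analysed here. A total of 27 symbols that had the form of spreadsheet dates were restored through their Entrez numbers.

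Library totals were read back from the values: among 19044 genes detected in both, 92.8% had an FPKM ratio that, divided by a shared constant of 1.08, was a ratio of integers (denominator at most 3000, tolerance 1e-12 of the value), compared with 0.294% with the constant off by 1 part in 10000. Totals were the multiple of the simplest whole ratio at which the implied gene lengths most often equalled a GENCODE M21 transcript length (512 of 7052 genes). Reads per gene took the whole-number multiple whose implied length was nearest the longest protein-coding transcript, and for a few abundant genes FPKM times that length. In simulated libraries this returned the exact reads for 99.7% of 13408 genes. The simulation gave each gene the length of its longest protein-coding transcript, so it does not check that choice of length.

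A pseudocount of 1 FPKM was added before taking the log2 ratio of SRSF1-MKO over WT for genes averaging at least 1 FPKM, which understates the change of low genes, and genes were counted at 1.5-fold. With 1 library per genotype no test was made. Ratios of FPKM carry exact (Clopper-Pearson) binomial 95% intervals on the reads (scipy 1.17.1, Python 3.11.15), which cover counting error only. Alternatives were other pseudocounts, scalings, filters and a 2-fold limit.

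The 10 members and the 13 gene lists were chosen with earlier results of these data known. Genes named are the members, up to 3 genes at each end of a list past 1.5-fold, all genes where 5 or fewer passed, and substrates beside their ligase; Hdac4, Klf15, Foxo1, Foxo3, Igf1, Traf6, Cblb, Fbxo40 and cullin core subunits were named for their known roles after their values were seen. A few genes that this rule names are not reported here. A comparison of the MuRF proteins was planned; transcript sequences were aligned in its place (Biopython 1.88, local alignment).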

Additional observations from a re-analysis of the deposited data

How the results depend on the processing

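The direction of Fbxo32, Trim63 and Trim55 and their side of the 1.5-fold limit held under each alternative run: pseudocounts of 0.1 and 5 FPKM, and 3 scalings (the median of genes averaging at least 5 FPKM set to 0, equal FPKM sums, and equal sums without mitochondrial and the 100 most abundant genes). The log2 ratio of Fbxo32 ran from 1.93 to 2.60, that of Trim63 from 0.95 to 1.35 and that of Trim55 from -1.59 to -1.07. Under all 3 scalings 2 members were lower instead of 1, and at a pseudocount of 0.1 Fbxo21 was a further higher member (0.91). Fbxo31 and Trim54 took negative values under the 3 scalings. The read numbers of members rest on the gene length nearest the annotation, and Trim32, with 121 and 85 reads, is the member that depth limits most. No paired analysis was possible because each genotype has 1 library, and no replicate could be left out.

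Counts of higher and lower genes on the pathway lists moved with the scaling. Over all listed genes they were 61 and 37 as deposited, 29 and 71 with the median set to 0, 30 and 66 with equal sums, 28 and 72 with the trimmed sums, 38 and 19 at a pseudocount of 5, and 26 and 16 at 2-fold. For the cullin core (4 and 1) they were 1 and 1 under all 3 scalings, 4 and 0 at a pseudocount of 5 and 1 and 0 at 2-fold. Ubiquitin and E1 genes (2 and 0) gave 1 and 0 at 2-fold. E2 enzymes (7 and 2) gave 1 and 2 under the 3 scalings and 0 and 0 at 2-fold. Other F-box genes (2 and 2) gave 4 and 4 at a pseudocount of 0.1, 0 and 0 at a pseudocount of 5 or at 2-fold, 1 and 0 at a mean of 5 FPKM, 0 and 9 with equal sums and 0 and 10 under the other 2 scalings. Cullin 3 receptors (4 and 5) gave 3 and 3 at a pseudocount of 5, 2 and 7 with the trimmed sums, 2 and 3 at a mean of 5 FPKM and 2 and 2 at 2-fold. Other TRIM genes (1 and 3) gave 0 and 1 at a pseudocount of 5 or at 2-fold, 0 and 2 at a mean of 5 FPKM, 0 and 4 with the median set to 0 and 0 and 3 with the trimmed sums. Other HECT ligases (2 and 2) gave 2 and 6 at a pseudocount of 0.1, 0 and 0 at a pseudocount of 5, 0 and 8 under the 3 scalings, 2 and 1 at a mean of 5 FPKM and 0 and 1 at 2-fold. Other wasting ligases (6 and 1) gave 7 and 2 at a pseudocount of 0.1, 2 and 0 at a pseudocount of 5 or at 2-fold, 3 and 0 at a mean of 5 FPKM, 2 and 3 with the trimmed sums and 2 and 2 under the other scalings. Deubiquitinases (8 and 2) gave 13 and 2 at a pseudocount of 0.1, 3 and 1 at a pseudocount of 5, 5 and 2 at a mean of 5 FPKM, 2 and 1 at 2-fold, and 2 and 5, 2 and 4 and 2 and 6 under the 3 scalings in the order given. Upstream factors (7 and 5) gave 4 and 0 at a pseudocount of 5, 5 and 3 at a mean of 5 FPKM, 4 and 2 at 2-fold, 4 and 6 with the median set to 0 and 4 and 5 under the other scalings. Upstream signalling (6 and 2) gave 7 and 4 at a pseudocount of 0.1, 3 and 2 at a pseudocount of 5 or at 2-fold, 2 and 2 at a mean of 5 FPKM and 3 and 7 under the 3 scalings. Reported substrates (13 and 10) gave 11 and 16 with the median set to 0, 11 and 17 with the trimmed sums and 11 and 6 at 2-fold. Counts of the other Asb genes (0 and 3) stayed within 1.5 times. Each of the 3 scalings lowers SRSF1-MKO values relative to WT.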
